A study of Homo sapiens with 12 samples.

Results

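SMAD proteins carry transforming growth factor beta (TGF-beta) and bone morphogenetic protein (BMP) signals from receptors at the cell surface to genes in the nucleus, and the ID genes are among the genes that BMP signals switch on. The 10 genes of this pathway described here were chosen by name, with earlier results of these data known, and matched to the gene symbols of the deposited tables. They are SMAD2, SMAD3, SMAD4, SMAD6, SMAD7, ID1, ID2, ID3, SKIL and TGIF1. All 10 were among the 17197 symbols deposited, and all 10 were among the 13171 genes that passed a filter on low counts.

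The 12 RNA-seq libraries came from AC16 cells, a human line established by fusing cells of adult ventricular heart with transformed fibroblasts. The 4 groups held 3 libraries each and all cells were transfected by jetPRIME after a change to serum-free medium: EP300 siRNA followed by hydrogen peroxide (siEP300.H2O2, libraries 10, 11 and 12), negative control siRNA followed by hydrogen peroxide (siNC.H2O2, libraries 7, 8 and 9), EP300 siRNA alone (siEP300, libraries 4, 5 and 6) and negative control siRNA alone (siNC, libraries 1, 2 and 3). H2O2 was given 12 h after transfection for 1 h, at a dose the labels write as 200 mM, a unit that could not be checked, and complete medium then replaced it; RNA was taken after 48 h. The siRNA of each library was taken from its title, because another label of the 6 EP300 siRNA libraries names MLF1. Nothing in the labels tells whether libraries within a group are separate cultures; the p-values therefore describe the spread between libraries, which may be technical.

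EP300 encodes p300, an acetyltransferase that SMAD complexes are known to recruit as a coactivator. SMAD2 and SMAD3 are phosphorylated by TGF-beta and activin receptors and pair with SMAD4, which serves both the TGF-beta and the BMP branch. These complexes act on genes in the nucleus. SMAD6 and SMAD7 are inhibitory SMADs that these pathways induce and that then block the receptors or SMAD4. ID1, ID2 and ID3 lack a DNA-binding region and hold E proteins, the partners of tissue-specific helix-loop-helix factors, away from DNA. SKIL (SnoN) and TGIF1 are corepressors that bind the receptor-activated SMADs.

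Promoter sequence is shown for 4 genes, since SMAD6, ID1 and ID2 had the largest falls with EP300 siRNA and SMAD7 is the other inhibitory SMAD. Each run is the 250 bases before a RefSeq gene start on GRCh38.p14, 5′ to 3′ on the gene's own strand, with capitals marking the palindrome GTCTAGAC, a SMAD-binding element, and its shorter relative CAGAC on either strand. SMAD6 lies at chr15:66701986-66702235 (plus strand), SMAD7 at chr18:48950966-48951215 (minus strand), ID1 at chr20:31605039-31605288 (plus strand) and ID2 at chr2:8681806-8682055 (plus strand).
SMAD6: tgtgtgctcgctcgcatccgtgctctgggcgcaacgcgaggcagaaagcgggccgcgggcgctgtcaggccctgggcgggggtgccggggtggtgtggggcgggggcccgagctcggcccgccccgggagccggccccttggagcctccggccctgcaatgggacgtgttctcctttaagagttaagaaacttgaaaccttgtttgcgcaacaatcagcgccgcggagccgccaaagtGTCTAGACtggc
SMAD7: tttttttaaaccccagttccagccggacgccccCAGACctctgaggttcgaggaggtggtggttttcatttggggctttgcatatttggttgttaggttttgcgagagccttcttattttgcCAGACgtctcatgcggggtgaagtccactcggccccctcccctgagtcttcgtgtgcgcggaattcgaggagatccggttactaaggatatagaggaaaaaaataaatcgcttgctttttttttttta
ID1: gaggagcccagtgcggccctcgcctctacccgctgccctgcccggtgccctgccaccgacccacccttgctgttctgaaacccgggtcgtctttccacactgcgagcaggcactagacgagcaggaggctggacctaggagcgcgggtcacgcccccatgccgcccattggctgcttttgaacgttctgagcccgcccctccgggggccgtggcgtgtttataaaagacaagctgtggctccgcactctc
ID2: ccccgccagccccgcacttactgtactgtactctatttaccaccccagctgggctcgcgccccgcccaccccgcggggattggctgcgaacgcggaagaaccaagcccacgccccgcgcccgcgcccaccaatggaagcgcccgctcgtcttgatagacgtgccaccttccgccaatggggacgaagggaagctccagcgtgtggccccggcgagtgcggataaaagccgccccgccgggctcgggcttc

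The palindrome occurred in 1 of the 23 windows of the 10 genes, that of SMAD6, 12 bases before the start. It occurred in 64 of 35116 RefSeq windows of this length, or 0.182%. CAGAC was found in 10 of the 23 windows, at SMAD3, SMAD7, ID3, SKIL and TGIF1, and in 38% of all windows, and the SMAD7 window shown held it 217 and 128 bases before the start. The ID1 and ID2 windows shown held neither run of letters. Sequence outside the windows was not searched, so sites further away are not described. The palindrome contains no CAGAC, and a match is a description of letters and not of a bound site.

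EP300 was lowered in the libraries labelled for it. It stood at 27.8 ± 2.01 CPM in siEP300.H2O2 and 76.7 ± 15.3 CPM in siNC.H2O2, and at 36.6 ± 0.31 CPM in siEP300 and 83.3 ± 16.1 CPM in siNC (SD, n = 3 each; CPM scales counts to a TMM-adjusted library total). MLF1, the gene of the other label, stood at 42.2 ± 0.66 CPM in siEP300.H2O2 and 51.4 ± 0.29 CPM in siNC.H2O2, and at 40.9 ± 1.94 CPM in siEP300 and 47.5 ± 2.47 CPM in siNC. MLF1 was thus lower too, with log2 fold changes of -0.29 with H2O2 and -0.22 without it (edgeR adjusted p = 0.00069 and 0.0052). Those of EP300 were -1.46 and -1.19. Library totals lay between 16081437 and 19033679 estimated counts.

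Libraries of a group differed from each other beyond sampling noise, and for the 10 genes partly by length. Over all genes the chi-square of a pair of libraries, divided by its degrees of freedom, was 3.08 to 8.79 in siEP300.H2O2, 5.46 to 18.1 in siNC.H2O2, 1.78 to 3 in siEP300 and 3.63 to 16 in siNC. In siNC.H2O2 library 9 and siNC library 1 the 4 genes with an effective length over 5 kb (SMAD2, SMAD3, SMAD4 and SKIL) were all above their group mean and the 3 ID genes, of about 0.65 to 1 kb, were all below it. In siEP300.H2O2 library 11 and siNC library 2 the 4 long genes were all below and the 3 ID genes all above. The other libraries were mixed, and library 10 had the 4 long genes above with ID1 and ID3 below.

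**Figure D1:**
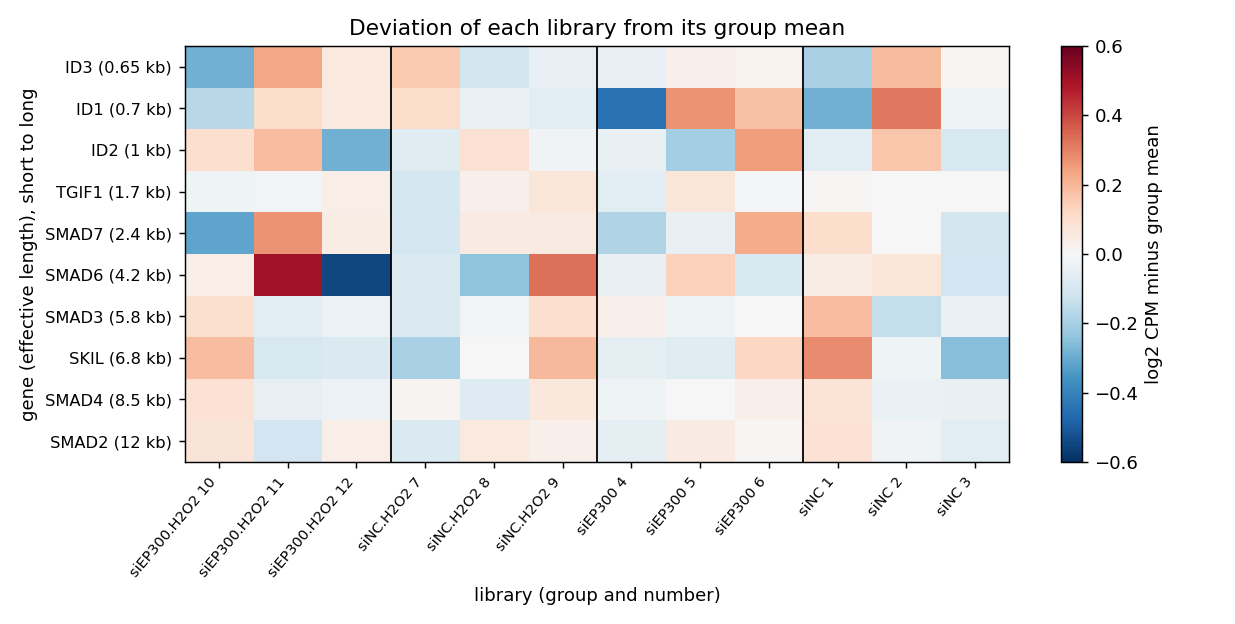
Log2 CPM of each library minus its group mean (colour, red above and blue below) for the 10 genes, ordered from the shortest to the longest effective length in kilobases, which is the estimated count divided by the FPKM and the library total. The siNC library 1 column is blue for the ID genes at the top and red for SKIL and SMAD2 to SMAD4 at the bottom, and SMAD6 varies most in siEP300.H2O2, where its counts were lowest.

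Levels between genes can be set side by side only per length, as FPKM. In siNC the order was ID3 (47.7 ± 5.74 FPKM), SMAD3 (28.8 ± 3.003), TGIF1 (18.1 ± 0.11), ID2 (15.02 ± 1.43), SMAD4 (11.03 ± 0.62), ID1 (10.8 ± 2.14), SMAD2 (10.2 ± 0.78), SKIL (5.88 ± 1.06), SMAD7 (2.68 ± 0.21) and SMAD6 (1.97 ± 0.17; SD, n = 3). SMAD4, ID1 and SMAD2 did not differ beyond their spread. SMAD6 was the lowest of the 10 in every group.

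**Figure D2:**
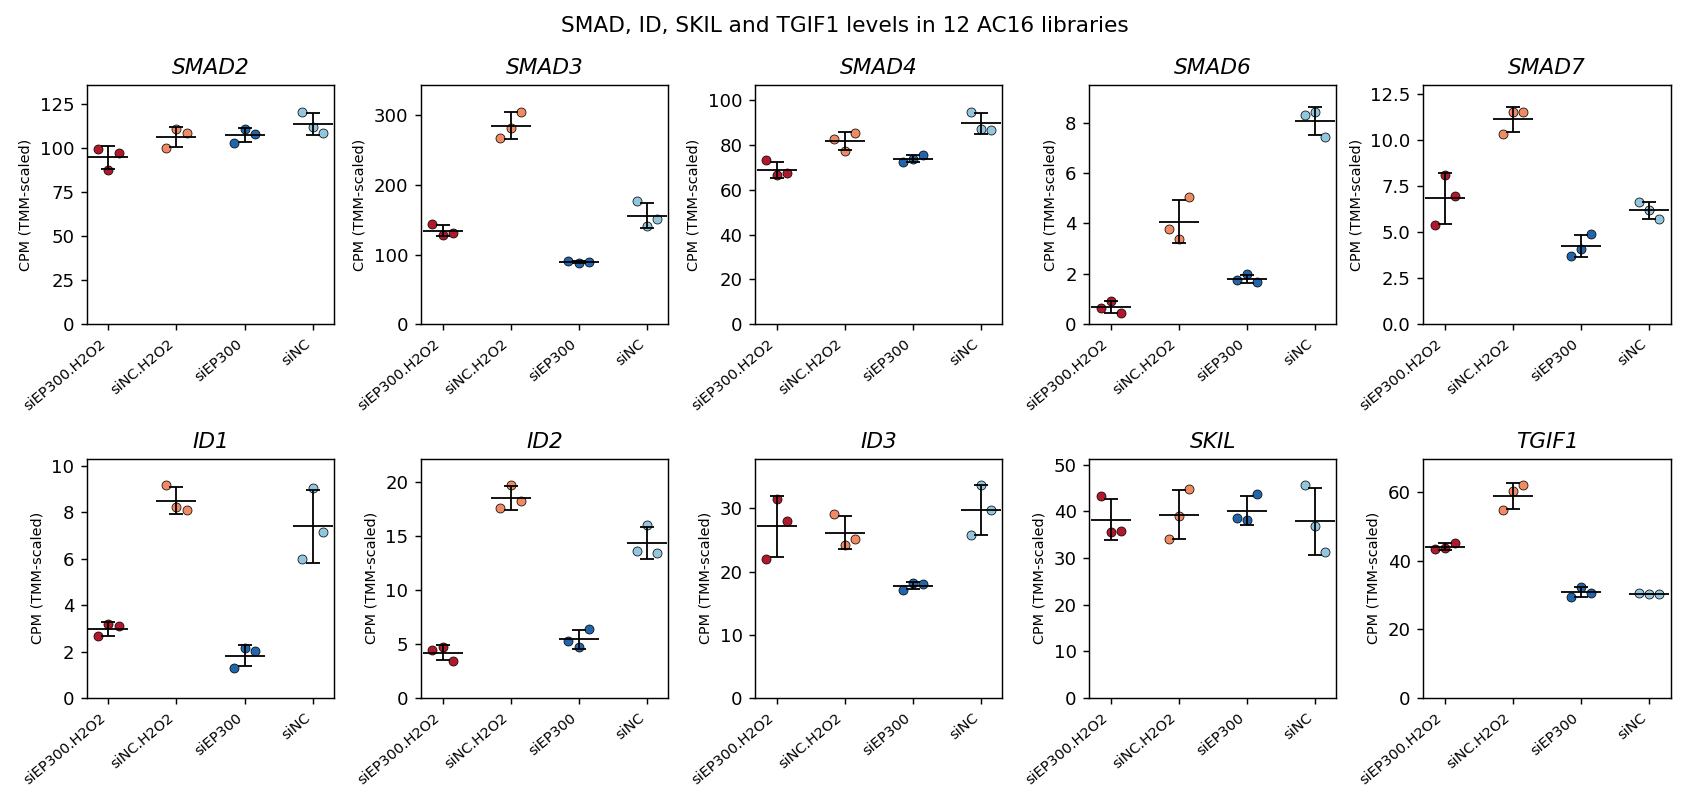
TMM-scaled CPM of the 10 genes in each library (points), with the mean and SD over 3 libraries (lines), in siEP300.H2O2, siNC.H2O2, siEP300 and siNC; the vertical axes start at 0 and differ between genes. SMAD6, ID1 and ID2 lie lower in both EP300 siRNA groups than in both control siRNA groups, and the 4 groups of SKIL overlap.

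The first comparison asked what EP300 siRNA did in cells without H2O2. The inhibitory SMAD6 and the ID1 and ID2 genes fell most, to 22.4%, 24.7% and 37.9% of their siNC means, and SMAD3, SMAD4, SMAD7 and ID3 fell less. No gene of the 10 rose, and SMAD2, SKIL and TGIF1 did not pass the test. The count was thus 7 lower and 0 higher, where 31.4% of all genes tested were called lower, 30.1% higher and 61.5% either way (edgeR quasi-likelihood test, Benjamini-Hochberg adjusted p under 0.05). The median log2 fold change was -0.65 for the 10 genes and -0.0042 for all genes, and the libraries of the same 7 genes did not overlap, all lower with EP300 siRNA. Over all genes 68.1% did not overlap, 33.4% with all libraries higher and 34.7% with all lower. In bulk RNA, fewer cells of a kind and less RNA per cell cannot be told apart.

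With H2O2 present the EP300 siRNA comparison gave 8 lower and 0 higher of 10, where 30.6% of all genes were called lower, 28.4% higher and 59% either way. The median was -0.56 against -0.019 for all genes. The 8 did not overlap between groups, all lower, where 61.7% of all genes did not, 29.9% all higher and 31.8% all lower. TGIF1 and SMAD2 were now among those called, and ID3 was not. Over all 12 ways of leaving out 1 library the lower calls were 7 in each case without H2O2 and 7 or 8 with it. Where the library left out was of a group not compared, the fold change hardly moved and mainly the shared spread changed.

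**Figure D3:**
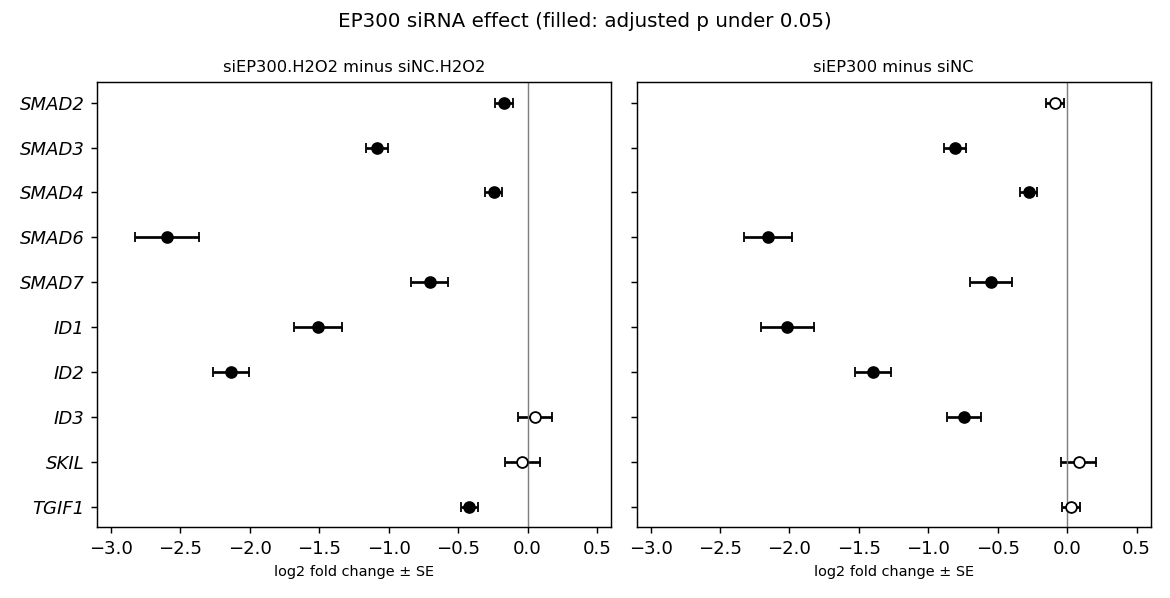
Log2 fold change ± SE of EP300 siRNA over control siRNA for the 10 genes, with H2O2 (siEP300.H2O2 minus siNC.H2O2, left) and without it (siEP300 minus siNC, right); filled points have an edgeR adjusted p under 0.05 and open ones do not. SMAD6 lies furthest left in both panels, at -2.60 and -2.15, and SKIL lies near 0 in both.

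Among the receptor-activated SMADs, SMAD3 moved and SMAD2 barely did. SMAD3 (chromosome 15, positions 67063763 to 67195195, plus strand, GRCh38) stood at 143, 129 and 131 CPM in siEP300.H2O2, against 268, 282 and 306 CPM in siNC.H2O2. It stood at 90.9, 87.6 and 88.9 CPM in siEP300, against 177, 141 and 151 CPM in siNC. Every EP300 siRNA library was below every control siRNA library of the same treatment, and the fall was -1.09 ± 0.08 on the log2 scale with H2O2 (SE, edgeR adjusted p = 2.1e-08) and -0.81 ± 0.08 without it (adjusted p = 5.5e-07). SMAD2, on chromosome 18 (47808957 to 47931146, minus strand), stood at 99.7, 87.3 and 97.4 CPM in siEP300.H2O2, against 100, 111 and 109 CPM in siNC.H2O2. These groups lie close together, and the log2 fold change of -0.17 ± 0.07 (adjusted p = 0.039) lost its call in 13 of 23 alternatives. Without H2O2 SMAD2 stood at 103, 111 and 108 CPM in siEP300, against 121, 112 and 108 CPM in siNC, with overlapping libraries and a log2 fold change of -0.09 (95% interval -0.22 to 0.05, adjusted p = 0.27). With an offset by gene length it was -0.35 and called (adjusted p = 2.4e-05).

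SMAD4, the partner shared by both branches, fell by a smaller amount. SMAD4 (chromosome 18, 51028394 to 51085045, plus strand) stood at 73.2, 66.6 and 67.4 CPM in siEP300.H2O2, against 82.5, 77.5 and 85.2 CPM in siNC.H2O2. It stood at 72.7, 73.9 and 75.5 CPM in siEP300, against 95.01, 87.3 and 86.8 CPM in siNC. The groups did not overlap, with log2 fold changes of -0.24 ± 0.06 with H2O2 (edgeR adjusted p = 0.0028) and -0.28 ± 0.06 without it (adjusted p = 0.00095).

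SMAD6, which mainly restrains the BMP branch, had the lowest log2 fold change of the 10 genes in both comparisons, though without H2O2 it lay within the standard errors of ID1. SMAD6 (chromosome 15, 66702228 to 66782848, plus strand, on the same chromosome as SMAD3) stood at 0.662, 0.915 and 0.441 CPM in siEP300.H2O2, against 3.77, 3.39 and 5.04 CPM in siNC.H2O2. It stood at 1.75, 1.98 and 1.69 CPM in siEP300, against 8.29, 8.44 and 7.42 CPM in siNC. No EP300 siRNA library reached the lowest control siRNA library of its treatment. The log2 fold changes were -2.60 ± 0.23 with H2O2 (edgeR adjusted p = 2.3e-07) and -2.15 ± 0.17 without it (adjusted p = 7.7e-08). The siEP300.H2O2 values rest on 12, 16 and 8 counts, so their precision is limited by counting. On log2(FPKM + 1), which understates changes of low genes, they were -0.73 with H2O2 and -1.06 without it.

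SMAD7, which restrains both branches, fell with a smaller size. SMAD7 (chromosome 18, 48919853 to 48952052, minus strand) stood at 5.41, 8.12 and 6.95 CPM in siEP300.H2O2, against 10.3, 11.5 and 11.5 CPM in siNC.H2O2. It stood at 3.71, 4.08 and 4.91 CPM in siEP300, against 6.65, 6.198 and 5.72 CPM in siNC. Libraries did not overlap in either pair, with log2 fold changes of -0.71 ± 0.13 with H2O2 (edgeR adjusted p = 0.00035) and -0.55 ± 0.15 without it (adjusted p = 0.0059).

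The 3 ID genes did not behave alike. ID1 (chromosome 20, 31605283 to 31606515, plus strand) stood at 2.65, 3.20 and 3.09 CPM in siEP300.H2O2, against 9.16, 8.24 and 8.07 CPM in siNC.H2O2. It stood at 1.31, 2.15 and 2.02 CPM in siEP300, against 5.96, 9.06 and 7.16 CPM in siNC. No libraries overlapped, and ID1 fell by 1.51 on the log2 scale with H2O2 (SE 0.17, edgeR adjusted p = 2.9e-06) and by 2.02 without it (SE 0.19, adjusted p = 3.7e-07). ID2 (chromosome 2, 8678845 to 8684453, plus strand) stood at 4.47, 4.74 and 3.42 CPM in siEP300.H2O2, against 17.6, 19.7 and 18.3 CPM in siNC.H2O2. It stood at 5.24, 4.70 and 6.43 CPM in siEP300, against 13.7, 16.1 and 13.4 CPM in siNC. ID2 fell by 2.14 with H2O2 (SE 0.13, adjusted p = 4.7e-09) and by 1.40 without it (SE 0.13, adjusted p = 3e-07), with no overlap.

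ID3, the most abundant ID gene per length, followed another course. ID3 (chromosome 1, 23557918 to 23559794, minus strand) stood at 21.97, 31.5 and 28.01 CPM in siEP300.H2O2, against 29.1, 24.2 and 25.2 CPM in siNC.H2O2. These libraries overlapped, with a log2 fold change of 0.05 (95% interval -0.21 to 0.31, edgeR adjusted p = 0.74). Without H2O2 ID3 stood at 17.1, 18.1 and 17.99 CPM in siEP300, against 25.8, 33.6 and 29.7 CPM in siNC, and it fell by 0.74 (SE 0.12, adjusted p = 0.00011), with every EP300 siRNA library lower.

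Of the corepressors, TGIF1 (chromosome 18, 3411608 to 3459978, plus strand) stood at 43.2, 43.5 and 45.1 CPM in siEP300.H2O2, against 54.6, 60.1 and 61.9 CPM in siNC.H2O2, a fall of 0.42 on the log2 scale (SE 0.06, edgeR adjusted p = 3.1e-05) with no overlap. Without H2O2 it stood at 29.4, 32.4 and 30.6 CPM in siEP300, against 30.4, 30.3 and 30.2 CPM in siNC, with overlap and a log2 fold change of 0.02 (95% interval -0.11 to 0.16, adjusted p = 0.75). SKIL (chromosome 3, 170357678 to 170396835, plus strand) stood at 43.3, 35.6 and 35.9 CPM in siEP300.H2O2, against 34.1, 39.1 and 44.7 CPM in siNC.H2O2. It stood at 38.7, 38.1 and 43.7 CPM in siEP300, against 45.6, 36.8 and 31.4 CPM in siNC. SKIL libraries overlapped in each pair, with 95% intervals of -0.31 to 0.23 with H2O2 and -0.19 to 0.35 without it.

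The next comparisons set H2O2 against no H2O2 with each siRNA, 48 h after H2O2 was added. A change to complete medium followed the H2O2, and its part in these differences was not tested. With EP300 siRNA, SMAD3, SMAD7, ID1, ID3 and TGIF1 rose and SMAD6 fell, 5 higher and 1 lower of 10, where 15.9% of all genes were called higher, 15.1% lower and 31.1% either way. The median log2 fold change was 0.22 for the 10 genes and -0.00038 for all. The libraries of 7 did not overlap, 5 all higher and 2 all lower, where 49.9% of all genes did not, 25.5% all higher and 24.3% all lower. With control siRNA, SMAD3, SMAD7, ID2 and TGIF1 rose and SMAD6 fell, 4 higher and 1 lower, where 17.8% of all genes were called higher, 17.4% lower and 35.3% either way. The median was 0.13 for the 10 genes and -0.0081 for all. The libraries of 6 did not overlap, 4 all higher and 2 all lower, where 41.7% of all genes did not, 20.5% all higher and 21.2% all lower.

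SMAD3 and SMAD7, an activator and an inhibitor of the same branch, both rose with H2O2 whichever siRNA was present. SMAD3 rose by 0.59 ± 0.08 with EP300 siRNA (SE, edgeR adjusted p = 5.9e-05) and 0.87 ± 0.08 with control siRNA (adjusted p = 7.1e-07). SMAD7 rose by 0.69 ± 0.15 with EP300 siRNA (adjusted p = 0.0031) and 0.84 ± 0.13 with control siRNA (adjusted p = 0.00021). SMAD6 fell, with -1.42 ± 0.27 with EP300 siRNA (adjusted p = 0.001) and -0.98 ± 0.15 with control siRNA (adjusted p = 0.00019). In siEP300.H2O2 SMAD6 stood at 8.36% of its siNC mean, while SMAD7 stood at 110%. TGIF1 rose by 0.51 ± 0.06 with EP300 siRNA (adjusted p = 2.9e-05) and 0.96 ± 0.06 with control siRNA (adjusted p = 2.7e-08).

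The ID genes responded to H2O2 one by one. ID1 rose by 0.71 ± 0.22 with EP300 siRNA (SE, edgeR adjusted p = 0.023), a call lost without siEP300.H2O2 library 11 or 12 or siEP300 library 4, and had 0.20 ± 0.15 with control siRNA (adjusted p = 0.33). ID2 had -0.38 ± 0.15 with EP300 siRNA (adjusted p = 0.073), which did not pass the test, and rose by 0.36 ± 0.11 with control siRNA (adjusted p = 0.02), a call lost in 6 of 23 alternatives. ID3 rose by 0.61 ± 0.13 with EP300 siRNA (adjusted p = 0.0019) and had -0.18 ± 0.12 with control siRNA (adjusted p = 0.26). SMAD2, SMAD4 and SKIL were not called in either H2O2 comparison; SMAD2 with EP300 siRNA (-0.18 ± 0.07, adjusted p = 0.051) and SMAD4 with control siRNA (-0.13 ± 0.06, adjusted p = 0.096) had every H2O2 library lower.

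**Figure D4:**
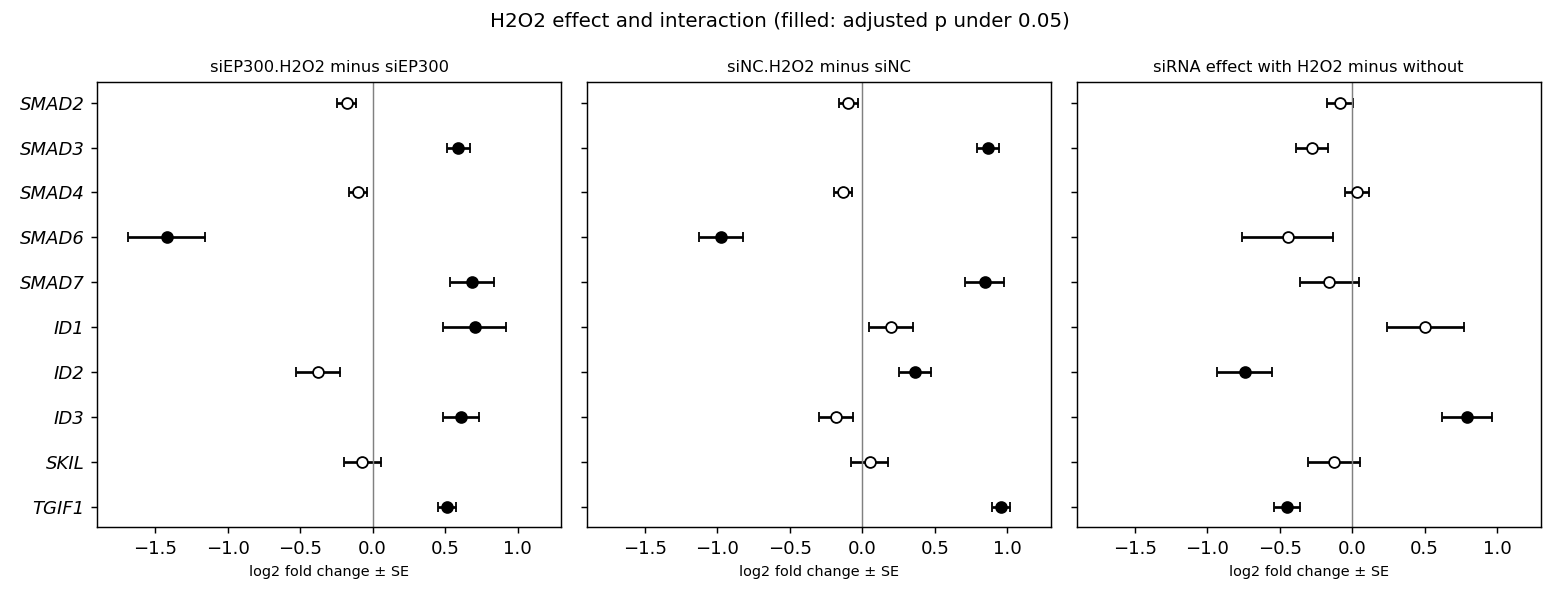
Log2 fold change ± SE of H2O2 over no H2O2 for the 10 genes with EP300 siRNA (left) and with control siRNA (middle), and the interaction, how far the siRNA effect differed between H2O2 and no H2O2 (with minus without, right); filled points have an edgeR adjusted p under 0.05. SMAD6 lies left of 0 and SMAD3, SMAD7 and TGIF1 right of 0 in both H2O2 panels, and the filled interaction points are ID2, ID3 and TGIF1.

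Whether the EP300 siRNA effect differed with H2O2 was tested as an interaction. Of the 10 genes 3 passed, ID3 higher and ID2 and TGIF1 lower, where 1.12% of all genes were called higher, 2.21% lower and 3.33% either way. TGIF1 had an interaction of -0.45 ± 0.09 (SE, edgeR adjusted p = 0.013) and was called in all 22 alternatives. ID3 had 0.79 ± 0.17 (adjusted p = 0.021) and ID2 -0.74 ± 0.19 (adjusted p = 0.046), and these calls were lost in 8 and 13 of the 22. The ID2 and ID3 interactions kept their signs throughout, between -0.84 and -0.61 for ID2 and between 0.67 and 0.92 for ID3 when 1 library was left out. SMAD6 (-0.44 ± 0.31, adjusted p = 0.54), SMAD3 (-0.28 ± 0.11, adjusted p = 0.21), ID1 (0.51 ± 0.26, adjusted p = 0.36), SMAD7, SMAD4, SMAD2 and SKIL did not pass. With the offset by gene length SMAD3 passed (-0.23, adjusted p = 0.022).

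The genes around the 10 were taken from pathway lists. Of all genes, 28.4% were called higher and 30.6% lower with EP300 siRNA in the presence of H2O2, and 30.1% and 31.4% in its absence. These shares stand beside the counts called in each list and in the cell type markers below. Of 10 other SMADs and SMAD adaptors, 2 were higher and 2 lower with EP300 siRNA in the presence of H2O2, and 3 higher and 1 lower in its absence. SMAD1, a BMP-branch receptor-activated SMAD, fell, with log2 fold changes of -0.36 with H2O2 and -0.28 without it (edgeR adjusted p = 0.0049 and 0.016). STRAP, a receptor-binding adaptor, rose by 0.35 and 0.46 (adjusted p = 1.5e-05 and 1.1e-06). The median log2 fold change of the list was -0.081 with H2O2 and -0.021 without it.

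Of 16 TGF-beta and BMP receptors 14 were tested, with 1 higher and 5 lower with EP300 siRNA in the presence of H2O2, and 6 higher and 4 lower in its absence. ENG, an accessory receptor, fell (log2 fold changes -0.58 with and -0.48 without H2O2) (edgeR adjusted p = 7.5e-07 and 5.6e-06) and BAMBI, a decoy receptor that is also a BMP target, fell (-0.90 and -0.64) (adjusted p = 5.4e-07 and 1.3e-05). TGFBR1, the type I TGF-beta receptor, rose by 0.70 without H2O2 (adjusted p = 3.1e-06), and its interaction was -0.61 ± 0.11 (adjusted p = 0.0093). TGFBR2, its type II partner, had an interaction of -0.46 ± 0.11 (adjusted p = 0.039).

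Of 14 SMAD corepressors, 5 were higher and 4 lower with EP300 siRNA in the presence of H2O2, and 7 higher and 4 lower in its absence. HDAC1, a histone deacetylase, rose by 1.27 with and 0.89 without H2O2 on the log2 scale (edgeR adjusted p = 7.8e-10 and 2.7e-08) and RBL1, a pocket protein, by 1.17 and 1.08 (adjusted p = 9.8e-09 and 2.3e-08), while CTBP2, a corepressor, fell, with -0.74 and -0.62 (adjusted p = 6.7e-08 and 4.4e-07). Of 16 SMAD ubiquitin ligases, deubiquitinases and other SMAD regulators 15 were tested, with 6 higher and 2 lower in each EP300 siRNA comparison. The 2 lower were PMEPA1, which also stands among the TGF-beta targets below, and the ligase STUB1. PMEPA1, a TGF-beta-induced inhibitor that binds SMAD2 and SMAD3, fell, with -1.58 and -1.91 (adjusted p = 6.2e-08 and 3.3e-08), and the ligase NEDD4L rose by 0.59 and 0.66 (adjusted p = 5.8e-07 and 2.6e-07). With H2O2 NEDD4L also rose, by 1.10 with EP300 siRNA and 1.17 with control siRNA, and the ligase SMURF2 rose by 0.74 and 0.80.

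Of 16 BMP targets 11 were tested; 2 were higher and 8 lower with EP300 siRNA in the presence of H2O2, and 2 higher and 6 lower in its absence. The median log2 fold change was -0.89 with H2O2 and -0.56 without it, against -0.019 and -0.0042 for all genes. ATOH8, a helix-loop-helix factor, fell, with -2.34 and -2.63 (edgeR adjusted p = 4.5e-06 and 4.4e-07), with means of 0.427 CPM in siEP300.H2O2 and 2.18 CPM in siNC.H2O2. The homeobox gene MSX2 fell, with -1.38 and -1.15 (adjusted p = 1.5e-05 and 7.6e-05). GREM1, a secreted BMP antagonist, rose with EP300 siRNA by 0.29 with H2O2 and 0.45 without it (adjusted p = 0.0025 and 5.4e-05). In the H2O2 comparisons GREM1 rose by 0.78 with EP300 siRNA and 0.94 with control siRNA.

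The 26 TGF-beta targets did not move one way: 8 were higher and 11 lower with EP300 siRNA in the presence of H2O2, and 14 higher and 8 lower in its absence. CCN2, a matricellular protein, rose by 2.21 and 2.06, and the matrix protease MMP2 fell, with -2.06 and -1.74 (edgeR adjusted p of 2.3e-10 or lower for each). In the interaction 0 were higher and 8 lower, where 1.12% of all genes were called higher and 2.21% lower. Among the 8 were VEGFA (-0.85 ± 0.10, adjusted p = 0.00061), SNAI2 (-0.78 ± 0.11, adjusted p = 0.0015) and TIMP3 (-0.61 ± 0.09, adjusted p = 0.0015).

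Of 14 E proteins and helix-loop-helix partners of the ID proteins 7 were tested, with 0 higher and 4 lower with EP300 siRNA in the presence of H2O2, and 1 higher and 5 lower in its absence. TWIST2 fell, with log2 fold changes of -0.62 with and -0.41 without H2O2 (edgeR adjusted p = 2.4e-05 and 0.0013), HAND2, a cardiac factor, with -1.23 and -1.10 (adjusted p = 0.0034 and 0.0039), and the E protein TCF3 with -0.33 and -0.62 (adjusted p = 0.0059 and 3e-05). HAND2 was near the floor, with group means of 0.33 to 0.88 CPM. The E protein TCF12, with group means of 105 to 120 CPM, was not called (0.05 and 0.03, adjusted p = 0.72 and 0.82). TCF4 rose without H2O2 (0.32, adjusted p = 0.039) and was not called with it.

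Over the 12 libraries the genes whose log2 CPM followed each of the 10 most closely were named by Pearson correlation among 10722 protein-coding genes. The values are descriptions, since all libraries and the 4 groups are shared. SMAD3 was followed most closely by THBS1 and NRP1 (both over 0.99), SMAD6 by RAB15 (0.9901) and CCDC92 (0.9874), and SMAD7 by EVI2A (0.9714) and BCR (0.967). ID1 was followed by FSD1 (0.9879) and RELB (0.9852), ID2 by SLC12A8 (0.987) and KCTD15 (0.9828), and ID3 by FLYWCH1 (0.9216) and ARHGEF19 (0.9211). TGIF1 was followed by SLC20A1 (0.9906) and SERPINE2 (0.9846), SMAD4 by TSC1 (0.9804) and DOLK (0.9769), SMAD2 by KDM4C (0.9365) and DUSP18 (0.9341), and SKIL by DGKH (0.8953) and PPP3CA (0.8834).

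The labelled cell type was set against its markers. Of 20 cardiomyocyte markers 18 were in the tables, and 13 of them, among them TNNT2, MYH6, MYH7, MYL2, ACTN2, ACTC1 and TTN, were under 1 FPKM in every library. All 14 fibroblast markers passed the filter, from PDGFRA at 0.86 to 2.52 FPKM to VIM at 1389 to 2431 FPKM. Their sum was 3014 to 3184 FPKM in siEP300.H2O2, 3643 to 3732 in siNC.H2O2, 3310 to 3376 in siEP300 and 3089 to 3125 in siNC. The sum was thus lower with EP300 siRNA in the presence of H2O2 and higher in its absence. It rests largely on VIM and on COL1A1, at 523.76 to 917.07 FPKM. The 14 markers themselves were mixed, with 3 called higher and 7 lower with H2O2, and 6 higher and 4 lower without it. Of endothelial markers, 9 of the 10 were in the tables, and PECAM1, CDH5, VWF and CLDN5 were under 1 FPKM in every library. The summed endothelial level was 10.7 to 10.9 FPKM in siEP300.H2O2, 25.9 to 30.2 in siNC.H2O2, 10.5 to 11.4 in siEP300 and 28.3 to 37.9 in siNC. EGFL7 makes up most of it, with a maximum of 34.3 FPKM. Of the 7 that passed the filter, 2 were higher and 5 lower with EP300 siRNA in the presence of H2O2, and 2 higher and 4 lower in its absence. The summed cardiomyocyte level, mostly NPPB, was 93.0 to 112.5 FPKM in siEP300.H2O2, 120.0 to 157.8 in siNC.H2O2, 93.9 to 99.7 in siEP300 and 117.8 to 120.7 in siNC. The summed epithelial level, mostly KRT18 and KRT8, was 386.5 to 444.2 FPKM in siEP300.H2O2, 487.8 to 523.0 in siNC.H2O2, 284.9 to 290.1 in siEP300 and 323.7 to 357.5 in siNC, and 4 of the 9 markers, CDH1 among them, were under 1 FPKM in every library. Of the 7 cardiomyocyte markers that passed the filter, EP300 siRNA gave 1 higher and 3 lower with H2O2. Without H2O2 it gave 2 higher and 4 lower. TTN was called higher in both, with log2 fold changes of 0.62 with H2O2 and 0.81 without it. Of the 8 epithelial markers that passed, 0 were higher in either comparison, and 5 were lower with H2O2 and 4 without it. The endothelial, cardiomyocyte and epithelial sums were lower with EP300 siRNA, and their part in the results of ID1, ID2 and SMAD6 was not tested. FPKM sums carry no TMM scaling. In the edgeR test without H2O2, NPPB (-0.20, adjusted p = 0.11) and KRT18 (-0.12, adjusted p = 0.15) were not called. With H2O2 both were called lower (-0.43 and -0.21, adjusted p = 0.0021 and 0.014). EGFL7 (-1.77 with and -2.09 without H2O2) and KRT8 (-0.57 in each) were called lower in both comparisons. The leukocyte sum was 49.1 to 56.8 FPKM in siEP300.H2O2, 38.6 to 40.1 in siNC.H2O2, 31.1 to 34.7 in siEP300 and 26.5 to 33.3 in siNC, with PTPRC under 1 FPKM in every library. It was mostly CD68, at 20.75 to 53.43 FPKM. Of the 10 leukocyte markers 2 passed the filter, and they went opposite ways. CD68 rose with EP300 siRNA (0.65 with and 0.35 without H2O2) and CD14 fell (-1.13 and -0.73), all called. The smooth muscle sum was 358.6 to 395.4 FPKM in siEP300.H2O2, 353.7 to 363.5 in siNC.H2O2, 320.8 to 326.3 in siEP300 and 308.5 to 324.2 in siNC. Of the 7 smooth muscle markers that passed the filter, 4 were higher and 3 lower in each EP300 siRNA comparison.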

How the data were processed

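RNA from 12 libraries was measured as 1 value per gene symbol. The authors deposited estimated counts, unscaled between libraries, and FPKM, scaled to gene length and library total. The submitters' processing notes name HISAT, Bowtie2 and GRCh38.p13. The counting program and strand setting are not given in the sources. Of a library's estimated counts 12.0% to 13.8% were fractional, and all were rounded.

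The test was edgeR 4.0.16 on R 4.3.3 (quasi-likelihood test, TMM scaling, filterByExpr, 1 mean per group over 12 libraries), two-sided, with Benjamini-Hochberg adjustment over 13171 genes and a call at 0.05. Alternatives used DESeq2 1.42.0 and limma 3.58.1 on log2(FPKM + a pseudocount). Effective length is the estimated count divided by FPKM and library total. The test was also run on simulated data. The 10 genes and all lists were chosen with earlier results of these data known; up to 4 genes per list and comparison were named by smallest adjusted p, and 1 gene that this rule names is not reported here. Gene positions come from the GENCODE annotation of GRCh38, promoter windows from RefSeq.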

Additional observations from a re-analysis of the deposited data

Results flagged for a closer look

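The 3 results are given here because the EP300 siRNA effect differed by a test of the difference itself (the interaction, siRNA effect with H2O2 minus without; edgeR adjusted p under 0.05). TGIF1 had -0.45 (adjusted p = 0.013): EP300 siRNA gave -0.42 with H2O2 and 0.02 without it. ID2 had -0.74 (adjusted p = 0.046): the effects were -2.14 with H2O2 and -1.40 without it. ID3 had 0.79 (adjusted p = 0.021): the effects were 0.05 with H2O2 and -0.74 without it.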

How the results depend on the processing

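No result reversed its direction among those called. Of the falls with EP300 siRNA, SMAD3, SMAD4, SMAD6, SMAD7, ID1 and ID2 in both comparisons, ID3 without H2O2 and TGIF1 with it stayed called under all 23 alternatives. Alternatives that left out a library of a group not compared could hardly move these fold changes. Leaving out each of the 12 libraries moved the lower calls in the EP300 siRNA comparisons not at all without H2O2 (7) and between 7 and 8 with it; with H2O2 added, lower calls ran from 1 to 2 with EP300 siRNA; in the interaction higher calls among the 10 genes ran from 0 to 1 and lower calls from 1 to 2, and over all genes from 59 to 258 higher and 137 to 459 lower. With control siRNA, lower calls among the 10 with H2O2 were 2 instead of 1 under upper-quartile factors and all 3 FPKM settings, the extra gene being SMAD4. With EP300 siRNA they were 2 instead of 1 under upper-quartile factors, DESeq2, a filter of 1 CPM in 3 libraries, a fit of the 2 groups alone, FPKM with pseudocounts 1 and 0.1, and an offset by gene length. Interaction calls among the 10 that were lower numbered 1 instead of 2 under upper-quartile factors and all 3 FPKM settings. Over all genes higher interaction calls were 148 and became 325, 265 and 275 with FPKM (pseudocount 1, pseudocount 0.1, and pseudocount 1 unfiltered) and 401 with the offset by gene length, where lower calls were 705 instead of 291. A setting added after seeing the data left aside siNC library 1, siNC.H2O2 library 7 and siEP300.H2O2 library 10, which were picked by how they deviated, although any group of 3 has a library outside its closest pair and siNC.H2O2 library 9, which was kept, deviated likewise. The remaining spread is smaller by construction and the calls rest on that choice. There, genes of the 10 called higher were 1 in each EP300 siRNA comparison, genes of the 10 called lower 2 and 3 in the H2O2 comparisons with control and EP300 siRNA, and interaction calls were 2 higher and 4 lower among the 10 and 1496 higher and 1913 lower over all genes. The share of higher calls among all called with H2O2 and control siRNA was 50.55%, against 36.75% with upper-quartile factors and 33.1% with FPKM; for the interaction it was 33.71%, against 58.66% with FPKM. No paired analysis was possible because the replicate numbers run from 1 to 12 and no groups share one.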

Other observations

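The effective length of a gene, the estimated count divided by the FPKM and the library total, had no overlap between EP300 siRNA and control siRNA libraries for SMAD3 in both comparisons. It was 5806 to 5845 bases in siEP300.H2O2, against 5576 to 5723 in siNC.H2O2, and 5987 to 6033 bases in siEP300, against 5525 to 5742 in siNC (differences of 3.25% and 6.62%; exact two-sided permutation p = 0.1 for each, the smallest that 3 against 3 libraries allow). Of 10752 genes tested with at least 1 FPKM in every library, 10.6% did not overlap with H2O2 and 17% without it. SMAD6 had 3881 to 4074 bases in siEP300.H2O2, against 4227 to 4305 in siNC.H2O2 (-7.45%, exact p = 0.1), from FPKM of 0.11 to 0.23 in siEP300.H2O2 that are given to 2 decimals. SKIL had 6829 to 6856 bases in siEP300, against 6618 to 6824 in siNC (1.88%, exact p = 0.1). The effective length of TGIF1 was 1693 to 1716 bases in siEP300.H2O2, against 1739 to 1764 in siEP300, and 1712 to 1717 in siNC.H2O2, against 1735 to 1746 in siNC (exact p = 0.1 for each), where 9.02% of all these genes did not overlap with EP300 siRNA and 8.39% with control siRNA. How the deposited FPKM took account of transcript length is not given in the sources used here. SMAD3 in siEP300 stood at 57.1% of its siNC mean in CPM and at 51.4% in FPKM.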
